A study of Mus musculus with 4 samples.

Results

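The genes of the cell division cycle and of DNA replication were followed through 4 mouse oral cancer lines. They were a hand-written list of 52 genes that covers G1/S control, the licensing of replication origins, DNA synthesis and mitosis, with Ensembl identifiers matched to symbols through GENCODE M21. The expression table of 34721 entries held 51 of them, and Cdt1 was not analysed here. The RNA came from AOC3 and AOC11, cell lines of oral cavity tumors of C57BL/6 mice, and from AOC3-LN and AOC11-LN, lines of lymph node tumors of the same animals. All 4 lines share the carcinogen and its route. DMBA, a carcinogen that forms DNA adducts, was applied to the buccal mucosa with a cotton swab until a tumor was overt, the isolated cells were passed as a subcutaneous tumor in the flank of C57BL/6 mice, fibroblasts were removed with a kit, and the cells were grown in DMEM/F12 with fetal bovine serum. The AOC11 mouse was exposed for some weeks longer than the AOC3 mouse, so length of exposure and mouse cannot be told apart. The labels name no drug treatment of the cells. The genotype of the animals beyond the strain is not given in the labels. Each group is therefore 1 mouse with a primary and a lymph node line, and each line is 1 culture with 1 library, so any difference between the AOC3 and AOC11 lines is a difference between a pair of animals.

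Cells commit to division when D-type cyclins bind the kinases Cdk4 and Cdk6 and phosphorylate the retinoblastoma protein, which releases E2F transcription factors. E2F in turn drives cyclin E, the proteins that load and fire the Mcm helicase at replication origins, and the enzymes that supply deoxynucleotides. Later, Cdk1 with cyclin A and B, the Plk1 and Aurora kinases, and a large set of centromere and spindle proteins carry the cell through mitosis, and their genes share a late program that the DREAM complex, Mybl2 and Foxm1 control through promoter elements known as the CHR and the CCAAT box. Carcinomas of the mouth often lose the inhibitors of Cdk4 or gain cyclin D1.

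Levels are given in FPKM, the number of sequenced fragments of a gene scaled to its transcript length and to the library, so levels of different genes may be set side by side. All 51 genes passed the filter of at least 1 FPKM in at least 1 line, and none was below 1 FPKM in any line. The lowest value was 2.20 FPKM, of E2f2 in AOC11, and the highest 964.9 FPKM, of Cdk4 in AOC3. Of these genes, 45 were at or above 10 FPKM in all lines and 11 at or above 100 FPKM in all lines. The median of the list was 53.4 and 46.5 FPKM in AOC3 and AOC3-LN and 54.8 and 57.3 FPKM in AOC11 and AOC11-LN, against 10.6, 9.91, 10.8 and 10.9 FPKM over all 14165 genes that passed the filter. Genes of every phase of the cycle were thus expressed in each line, and the median of the list lay several fold above that of the expressed genes. In bulk RNA of a culture, a larger share of cells in a phase and more RNA per cell in that phase cannot be told apart.

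The libraries held an estimated 28800000 to 34300000 fragments each. Fragments per gene were approximated from the longest transcript of each gene. On this basis the list member with the fewest fragments, Ccne1 in AOC3, rested on about 354 of them, a counting error of 5.31%. Where shorter transcripts are in use, the fragments are fewer and the error is larger. Such errors cover counting only. Of 8 epithelial markers, Epcam, Cdh1, Krt14, Krt8, Krt18 and Tjp1 were at 28.4 FPKM or more in all lines. Krt5 and Trp63 differed between the mice. Krt5 was at 498.9 and 274.7 FPKM in AOC3 and AOC3-LN and at 4.99 and 17.0 FPKM in AOC11 and AOC11-LN. Trp63 was at 1.69, 2.10, 0.0848 and 0.841 FPKM in the same order. The part of this difference in the results between the mice was not tested. All 8 fibroblast markers were below 1 FPKM in every line, with summed levels of 0.246 to 1.17 FPKM, highest in AOC11-LN. The sums of 5 T cell markers were 0 to 0.0422 FPKM and those of 5 endothelial markers 0.328 to 0.481 FPKM. Of 6 macrophage markers with sums of 16.8 to 33.8 FPKM, Adgre1 was listed at 0 in all lines and Ptprc and Lyz2 were at most 0.0640 FPKM. The sums came from Cd68 with 4.45 to 13.0 FPKM, Cd14 with 6.26 to 8.55 FPKM and Csf1r, which was at 0.995 and 0.435 FPKM in AOC3 and AOC3-LN and at 20.8 and 6.01 FPKM in AOC11 and AOC11-LN. Their part in the results was not tested.

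**Figure D1:**
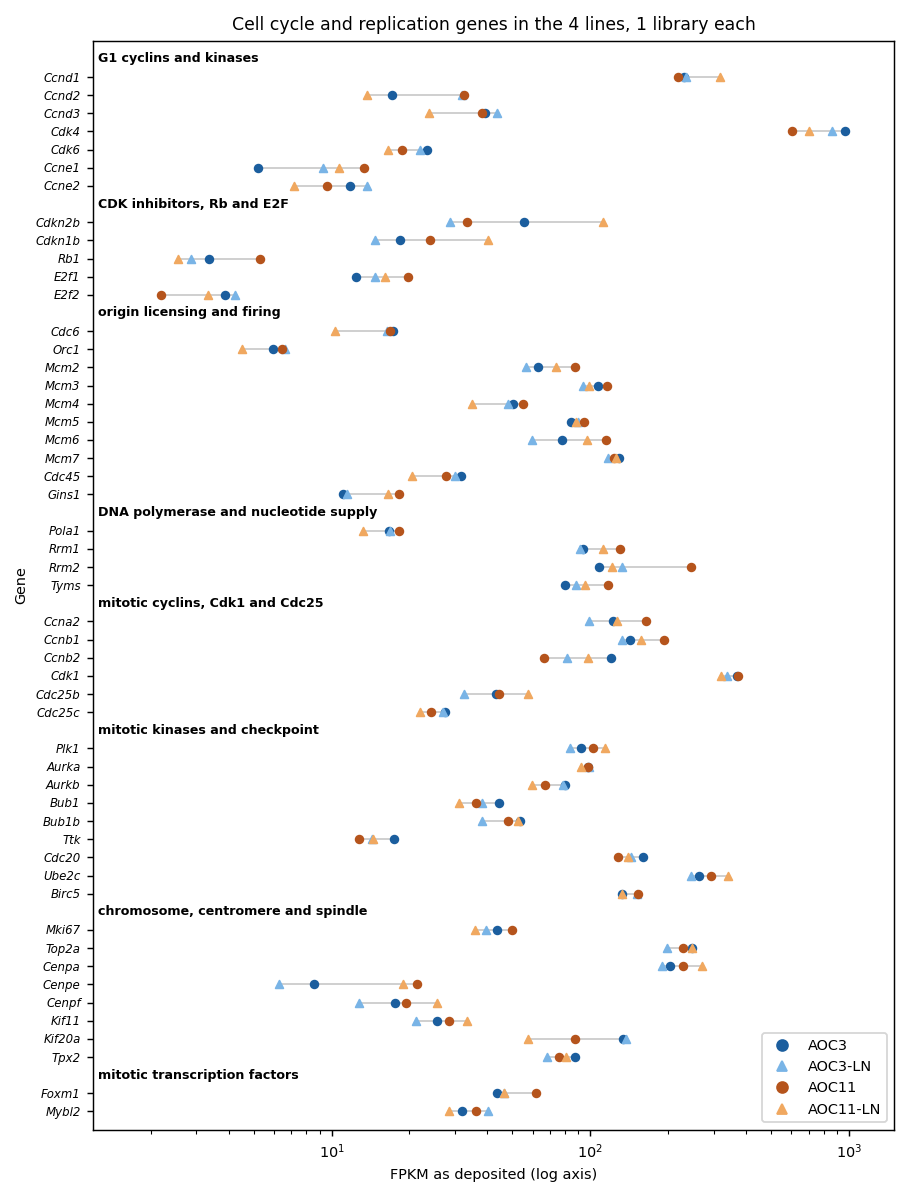
FPKM of the 51 list genes (log axis) in each line, 1 point per library, grouped by role with a grey line from the lowest to the highest line. Most genes lie within a narrow span, and Cdkn2b, Cenpe and Cdkn1b spread widest, with ratios of the highest to the lowest line of 3.93, 3.39 and 2.76.

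The lines differed little in these genes. For each gene the FPKM of the highest line was divided by that of the lowest, and the median of this ratio was 1.47 over the list, with 27 genes under 1.5. Over the 10038 genes that were at least as high as the lowest list member in all lines, the median ratio was 1.58. In 9 list genes, or 17.6%, the ratio was above 2, against 23.1% of those 10038 genes. Aurka, the kinase that matures centrosomes, had the narrowest span, from 92.2 FPKM in AOC11-LN to 99.2 in AOC3-LN, a ratio of 1.08. The helicase subunits Mcm7 and Mcm5 followed with ratios of 1.10 and 1.12. At the other end stood regulators of the G1 phase, namely Cdkn2b, Cdkn1b, Ccne1, Ccnd2 and Rb1, together with Rrm2 and the mitotic motor or centromere genes Cenpe, Kif20a and Cenpf. The highest value of a gene was in AOC11 for 21 genes, in AOC3 for 13, in AOC11-LN for 10 and in AOC3-LN for 7. The lowest was in AOC3-LN for 19 and in AOC11-LN for 18, so the lowest values sat in the lymph node lines for 37 of 51 genes, or 72.5%, against 55.7% of those 10038 genes. These are FPKM values before any normalization, on which AOC3-LN also had the lowest median over all genes.

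The promoters of the list carried different sequence words in its early and late genes, and 4 windows are shown, those of Mcm6 and Ccnb2 because they hold the early and the late words and those of Rrm2 and Cenpe because these genes passed 2-fold in a comparison. RefSeq promoter windows on GRCm38.p6, from 250 bases before to 50 after the gene start, were matched to 40 of the 52 genes. Both strands were searched for the E2F words TTTGGCGC, TTTCGCGC and TTCCCGCC, for the CHR words TTTGAA and TTCGAA, and for CCAAT. An E2F word stood in 9 of 21 windows of G1/S and replication genes (42.9%) and in 1 of 19 windows of mitotic genes (5.26%), against 3.39% of all 27025 genes with a window. The reverse held for the CHR, with 5 of 21 (23.8%) and 15 of 19 (78.9%), against 21.7% of all genes. A CCAAT word was in 13 of 21 (61.9%) and 17 of 19 (89.5%), against 41.1% of all genes, and a CHR and a CCAAT word together in 4 of 21 (19.0%) and 15 of 19 (78.9%), against 8.61%. A match of letters is a description of the window and not a measured binding site. In the windows below, printed 5′ to 3′ on the strand of the gene, capitals mark every matched word, counted from the gene start. In Mcm6 these are overlapping E2F words at -110 and -106, a further one at -47, and CCAAT words read on the other strand at -57 and -14. In Ccnb2 they are CHR words at -167 and 5 and CCAAT words at -87, -54 and -21. Mcm6 encodes a helicase subunit and Ccnb2 a B-type cyclin. The window of Mcm6 is chr1:128359656-128359955 (minus strand), that of Rrm2 chr12:24708004-24708303 (plus strand), that of Ccnb2 chr9:70421505-70421804 (minus strand) and that of Cenpe chr3:135212313-135212612 (plus strand).
Mcm6: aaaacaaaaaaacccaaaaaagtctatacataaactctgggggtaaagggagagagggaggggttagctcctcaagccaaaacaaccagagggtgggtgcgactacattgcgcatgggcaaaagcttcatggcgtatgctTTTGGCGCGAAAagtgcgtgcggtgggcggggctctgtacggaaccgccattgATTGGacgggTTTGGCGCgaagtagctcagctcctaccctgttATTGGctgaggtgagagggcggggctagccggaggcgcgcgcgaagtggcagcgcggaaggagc
Rrm2: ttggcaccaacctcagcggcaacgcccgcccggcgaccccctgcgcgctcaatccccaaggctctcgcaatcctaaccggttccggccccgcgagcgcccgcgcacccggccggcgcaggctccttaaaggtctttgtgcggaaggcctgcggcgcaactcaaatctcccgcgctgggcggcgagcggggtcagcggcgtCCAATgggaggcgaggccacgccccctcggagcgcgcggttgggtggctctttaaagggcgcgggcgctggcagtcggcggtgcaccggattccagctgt
Ccnb2: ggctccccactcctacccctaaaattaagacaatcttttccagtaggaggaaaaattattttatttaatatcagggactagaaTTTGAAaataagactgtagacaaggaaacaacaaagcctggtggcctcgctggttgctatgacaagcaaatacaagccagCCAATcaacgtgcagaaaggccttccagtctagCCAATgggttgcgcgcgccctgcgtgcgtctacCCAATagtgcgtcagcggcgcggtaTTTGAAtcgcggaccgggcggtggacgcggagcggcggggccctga
Cenpe: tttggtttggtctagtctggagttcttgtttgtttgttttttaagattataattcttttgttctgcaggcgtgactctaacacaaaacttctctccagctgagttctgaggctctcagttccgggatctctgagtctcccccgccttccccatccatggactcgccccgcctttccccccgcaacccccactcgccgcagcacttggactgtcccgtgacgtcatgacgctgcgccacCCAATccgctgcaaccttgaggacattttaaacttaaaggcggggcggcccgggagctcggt
Rrm2, the small subunit of ribonucleotide reductase, and Cenpe, a kinesin of the kinetochore, had a CCAAT word at -50 and -12 and neither an E2F nor a CHR word in these letters. Cdkn2b, a G1 gene, also passed 2-fold in a comparison, and its window is not printed here. That window had a CHR word read on the other strand at -161 and neither an E2F nor a CCAAT word.

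Cyclin D1 was the main D-type cyclin in every line. Ccnd1 was at 229.6 and 234.9 FPKM in AOC3 and AOC3-LN and at 219.2 and 318.1 FPKM in AOC11 and AOC11-LN, which was 80.3%, 75.7%, 75.7% and 89.4% of the summed level of the D-type cyclins. Ccnd2 (chr6:127125162-127152193, minus strand, mm10) was at 17.2 and 31.9 FPKM in AOC3 and AOC3-LN and at 32.5 and 13.8 FPKM in AOC11 and AOC11-LN. Its levels thus crossed between the mice, with the lymph node line higher in the AOC3 mouse and lower in the AOC11 mouse. Ccnd3 was at 39.1, 43.5, 38.0 and 23.9 FPKM in the same order of lines, with AOC11-LN alone well below the rest. Across the D-type cyclins, AOC11-LN had the highest Ccnd1 and the lowest Ccnd2 and Ccnd3. Of the exons of Ccnd1, 23.4% overlap LTO1 on the opposite strand, a gene of at most 10.3 FPKM.

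Cdk4, the main kinase partner of these cyclins and the most abundant transcript of the list, was at 964.9 and 857.4 FPKM in AOC3 and AOC3-LN and at 601.0 and 702.8 FPKM in AOC11 and AOC11-LN. Both AOC3 lines were above both AOC11 lines. The log2 difference was 0.64 (SE 0.19) on the scale of normalized log2(FPKM + 1), and limma gave it an adjusted p of 0.192 over all genes, so it did not pass the threshold of 0.05. Cdk6 was far lower, at 23.3, 21.9, 18.8 and 16.5 FPKM, and Cdk4 exceeded it by 32.1 times in AOC11 to 42.6 times in AOC11-LN. Cyclin E, which drives entry into S phase, was split between its genes. Ccne1 was at 5.18 and 9.31 FPKM in AOC3 and AOC3-LN and at 13.4 and 10.7 FPKM in AOC11 and AOC11-LN, whereas Ccne2 was at 11.8, 13.7, 9.65 and 7.18 FPKM. Ccne2 was thus the more abundant of the pair in both AOC3 lines and Ccne1 in both AOC11 lines. Neither cyclin E gene passed limma, with adjusted p of 0.388 for Ccne1 and 0.270 for Ccne2. Of their exons, 19.7% of Cdk4 overlap Tspan31 and 17.4% of Ccne2 overlap Ints8, both on the opposite strand, and Tspan31 reached 81.1 FPKM and Ints8 19.6 FPKM.

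An inhibitor of these kinases had the widest span of the list. Cdkn2b (chr4:89306299-89311039, minus strand), which encodes p15, an inhibitor of Cdk4 and Cdk6, was at 55.4 and 28.6 FPKM in AOC3 and AOC3-LN and at 33.4 and 112.4 FPKM in AOC11 and AOC11-LN. AOC11-LN was the highest line and AOC3-LN the lowest, and the lines of the mice overlapped. The neighbouring inhibitor gene Cdkn2a, not on the list, had the same order within each mouse, at 282.2, 215.6, 137.1 and 345.4 FPKM. Cdkn2a and Cdkn2b together came to 34.2% of the summed Cdk4 and Cdk6 level in AOC3, to 27.8% in AOC3-LN, to 27.5% in AOC11 and to 63.7% in AOC11-LN. The table does not separate the transcripts of Cdkn2a that encode p16 and p19. These are shares of RNA. The paper lists a nonsynonymous Cdkn2a mutation in AOC3 and AOC3-LN and none in the AOC11 lines, and its effect on the inhibitor was not tested. Cdkn1b, which encodes p27, an inhibitor of the cyclin E and cyclin A kinases, was at 18.4 and 14.7 FPKM in AOC3 and AOC3-LN and at 23.9 and 40.5 FPKM in AOC11 and AOC11-LN. Both AOC11 lines were above both AOC3 lines, and the log2 difference of -0.80 (SE 0.31) had an adjusted p of 0.261 by limma.

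Rb1, the retinoblastoma gene, and E2f2, an activating E2F gene, were the lowest of the list in every line. Rb1 was at 3.36 and 2.87 FPKM in AOC3 and AOC3-LN and at 5.30 and 2.54 FPKM in AOC11 and AOC11-LN, so AOC11 stood above the other 3 lines. E2f1 was at 12.4, 14.7, 19.8 and 16.0 FPKM and E2f2 at 3.87, 4.22, 2.20 and 3.33 FPKM. The AOC11 lines were higher in E2f1 and the AOC3 lines in E2f2, with adjusted p of 0.506 and 0.360 by limma.

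**Figure D2:**
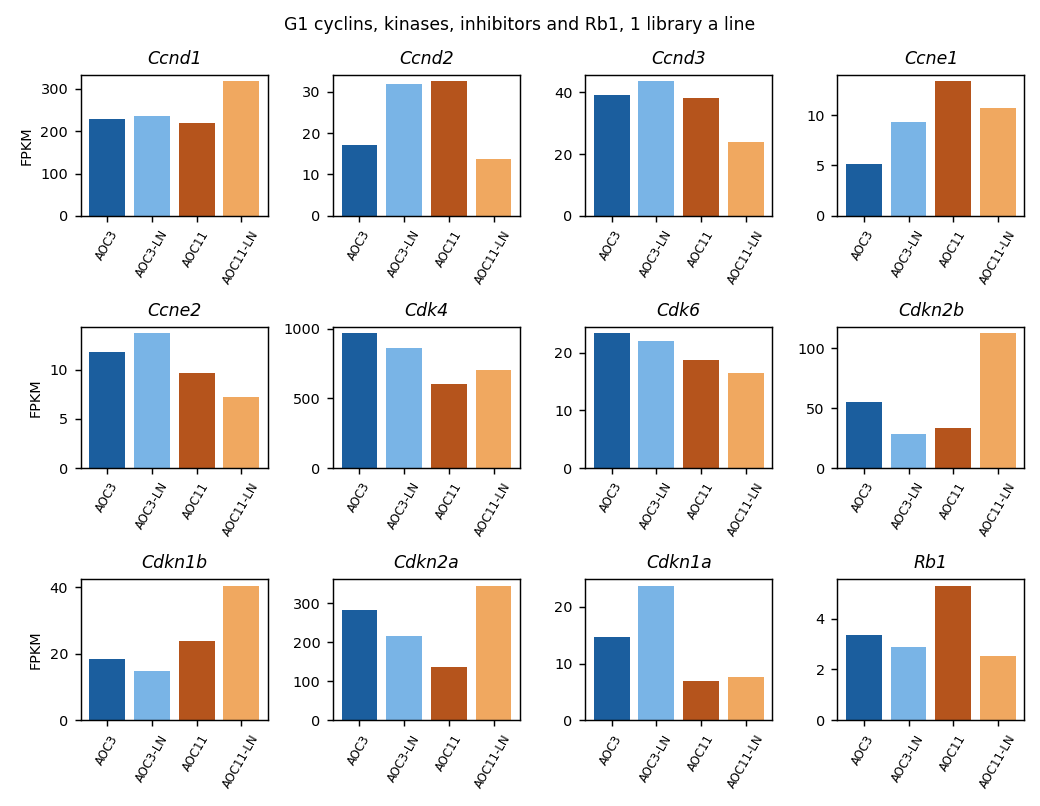
FPKM of cyclins, kinases, inhibitors and Rb1 of the G1 phase in the 4 lines, 1 library per bar, each panel with its own axis from 0. AOC11-LN had the highest Ccnd1, Cdkn2b, Cdkn1b and Cdkn2a and the lowest Ccnd2, Ccnd3, Ccne2, Cdk6 and Rb1.

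In genes of origin licensing and firing, the ratio of the highest to the lowest line ran from 1.10 in Mcm7 to 1.92 in Mcm6. Mcm2 to Mcm7 form the ring-shaped helicase that unwinds DNA at the fork, in equal parts as a protein complex. Their mean level was 85.4 and 77.5 FPKM in AOC3 and AOC3-LN and 98.7 and 86.5 FPKM in AOC11 and AOC11-LN. Mcm7 was the highest and Mcm4 the lowest subunit in every line, apart by 2.57 and 2.45 times in AOC3 and AOC3-LN and by 2.26 and 3.60 times in AOC11 and AOC11-LN. Transcripts of the subunits were therefore not in equal amounts, and they were least even in AOC11-LN. There, Mcm4 was at 35.0 FPKM, against 50.2 in AOC3, 47.9 in AOC3-LN and 54.8 in AOC11. Mcm6 was at 78.1 and 59.8 FPKM in AOC3 and AOC3-LN and at 114.7 and 97.5 FPKM in AOC11 and AOC11-LN, the widest span of the subunits. The other subunits ran from 56.7 to 87.6 FPKM for Mcm2, from 93.6 to 116.6 for Mcm3, from 84.6 to 94.5 for Mcm5 and from 117.4 to 128.9 for Mcm7. The AOC11 lines were above the AOC3 lines in Mcm6, with a log2 difference of -0.57 (SE 0.22) and an adjusted p of 0.269 by limma. Of the loading factors, Cdc6 was at 17.2, 16.4, 16.9 and 10.3 FPKM, with AOC11-LN lowest. Orc1, the origin-binding subunit, was at 5.95, 6.64, 6.42 and 4.52 FPKM, again lowest in AOC11-LN. Gins1, a part of the active helicase, was at 11.1 and 11.5 FPKM in AOC3 and AOC3-LN and at 18.3 and 16.6 FPKM in AOC11 and AOC11-LN, with an adjusted p of 0.259 by limma for the AOC3 against the AOC11 lines.

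**Figure D3:**
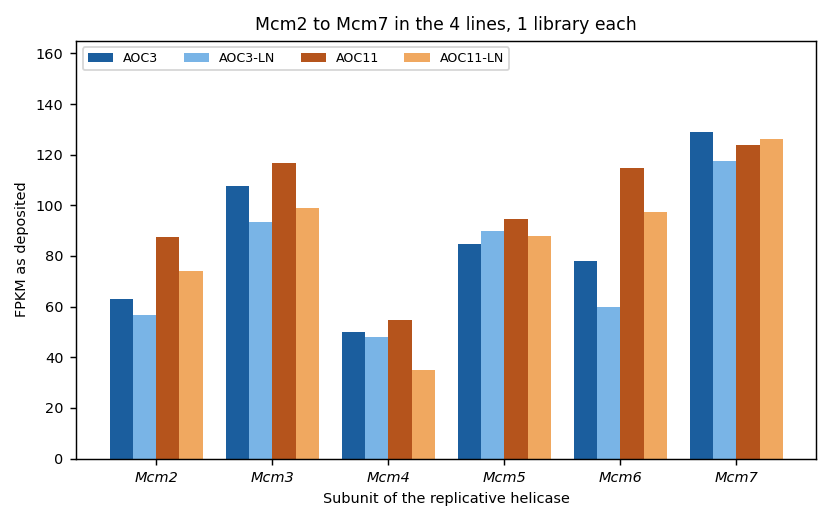
FPKM of the helicase subunits Mcm2 to Mcm7 in the 4 lines, 1 library per bar, with the axis from 0. Mcm7 is the highest and Mcm4 the lowest subunit in each line, and the Mcm4 bar of AOC11-LN, at 35.0 FPKM, is the shortest.

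Ribonucleotide reductase makes deoxynucleotides from a large subunit, Rrm1, and a small subunit, Rrm2, whose level is known to follow S phase. Rrm2 (chr12:24708241-24714146, plus strand) was at 108.3 and 132.8 FPKM in AOC3 and AOC3-LN and at 245.2 and 121.5 FPKM in AOC11 and AOC11-LN. AOC11 alone stood high, and the other 3 lines lay close together. Rrm1 was at 93.8, 91.3, 130.3 and 112.3 FPKM, so the ratio of Rrm2 to Rrm1 was 1.16, 1.45, 1.88 and 1.08. Tyms, thymidylate synthase, was at 79.9, 88.3, 117.6 and 95.3 FPKM, and Pola1, the catalytic subunit of DNA polymerase alpha, at 16.7, 16.9, 18.3 and 13.2 FPKM. All 4 genes had their highest value in AOC11.

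The mitotic genes had median levels of 87.3 and 78.7 FPKM in AOC3 and AOC3-LN and of 66.9 and 59.3 FPKM in AOC11 and AOC11-LN, above the 29.5 to 35.4 FPKM of the G1/S and replication genes. Gene by gene, 13 of the 25 mitotic genes were higher and 12 lower in the AOC3 than in the AOC11 lines, with a median log2 difference of 0.01. Cdk1, the kinase that starts mitosis, was at 370.3 and 337.9 FPKM in AOC3 and AOC3-LN and at 371.6 and 320.2 FPKM in AOC11 and AOC11-LN. Its cyclins differed among themselves. Ccnb1 was at 143.1, 133.3, 192.9 and 157.6 FPKM and Ccna2 at 122.5, 99.0, 164.3 and 126.7 FPKM, both highest in AOC11, whereas Ccnb2 was at 120.3, 81.3, 66.4 and 97.7 FPKM and lowest in AOC11. The ratio of Ccnb2 to Ccnb1 was thus 0.840 and 0.610 in AOC3 and AOC3-LN and 0.344 and 0.620 in AOC11 and AOC11-LN. Cdc25b, a phosphatase that activates Cdk1, was at 43.4, 32.6, 44.4 and 57.6 FPKM. Ube2c, the ubiquitin-conjugating enzyme of the anaphase-promoting complex, was the highest of the checkpoint and exit genes, from 246.1 FPKM in AOC3-LN to 342.5 in AOC11-LN. The kinases and checkpoint proteins of mitosis, namely Plk1, Aurka, Aurkb, Bub1, Bub1b, Ttk, Cdc20, Ube2c and Birc5, had log2 differences between the AOC3 and AOC11 lines of -0.30 to 0.38. Top2a, the topoisomerase that untangles sister chromosomes, ran from 198.8 FPKM in AOC3-LN to 247.7 in AOC11-LN, and Cenpa, the histone that marks centromeres, from 189.5 to 269.5 FPKM in the same lines. Mki67, which encodes the proliferation marker Ki-67, was at 43.6, 39.5, 49.9 and 35.8 FPKM.

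Cenpe and Kif20a were the exceptions. Cenpe (chr3:135212537-135273611, plus strand), the kinesin that links kinetochores to microtubules, was at 8.55 and 6.28 FPKM in AOC3 and AOC3-LN and at 21.3 and 18.9 FPKM in AOC11 and AOC11-LN. Both AOC11 lines were more than 2 times as high as either AOC3 line. Kif20a, a kinesin of the central spindle and cytokinesis, was at 134.1, 137.6, 87.5 and 57.3 FPKM, with both AOC3 lines on top. Of the exon bases of Kif20a, 29.3% overlap Cdc23 on the opposite strand, which reached 44.8 FPKM, and the part of these reads in the Kif20a level was not tested. Foxm1, an activator of the mitotic genes, was at 43.7, 46.5, 61.8 and 46.3 FPKM and Mybl2, its partner, at 31.9, 40.4, 36.3 and 28.6 FPKM, neither with the order of Cenpe or Kif20a.

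The question of how the tumors of the mice differ was addressed by the AOC3 lines against the AOC11 lines. Of the 51 genes, 26 were higher and 25 lower in the AOC3 lines, against 49.2% of all genes lower, with a median log2 difference of 0.01, equal to the 0.01 over all genes. A log2 difference above 1 or below -1, a 2-fold difference on this scale, was met by 1 gene, against 11.1% of all genes tested. This gene was Cenpe, with a log2 difference of -1.27 (SE 0.22). Kif20a came next with 0.96 (SE 0.24). Over the list, 6 genes passed 1.5-fold, against 26.9% of all genes, namely Kif20a, Cdk4 and Ccne2 higher and Cenpe, Cdkn1b and Ccne1 lower in the AOC3 lines. The median size of the difference was 0.31 over the list and 0.33 over all genes. It was 0.28 over the 10038 genes that were at least as high as the lowest list member in all lines. Of those 10038 genes, 561 passed 2-fold and 19.3% passed 1.5-fold.

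By limma with Benjamini-Hochberg adjustment over 14165 genes, none of the 51 genes passed an adjusted p of 0.05, against 0.205% of all genes, or 29 genes. At an unadjusted p under 0.05 there were 5 of them, against 18.7% of all genes. The lowest adjusted p of the list was 0.102, for Cenpe, followed by 0.166 for Kif20a. The lines of each mouse did not overlap in 29 list genes, against 53.1% of all genes. The AOC3 lines were higher in 14 of them, against 26.3% of all genes, and the AOC11 lines in 15, against 26.7%. The 4 lines come from a pair of animals, so limma measures the spread between lines of the same animal and not between animals.

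**Figure D4:**
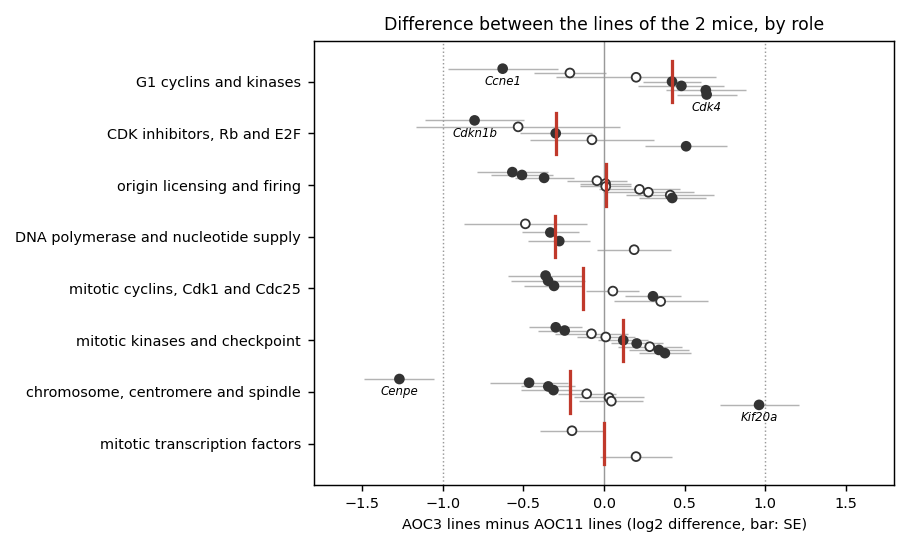
Log2 difference of the AOC3 lines from the AOC11 lines for each of the 51 genes by role, with SE from limma (n = 2 lines in each group), red bars at the median of each role and dotted lines at 2-fold. Filled points mark the 29 genes in which the lines of the mice did not overlap, and Cenpe alone lies past a dotted line, with Kif20a at 0.96.

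By role, the groups were spread on both sides of 0 in this comparison. The 7 G1 cyclins and kinases had a median log2 difference of 0.42, with 5 of them higher in the AOC3 lines. The 5 genes of inhibitors, Rb1 and E2F had a median of -0.30 and the 4 genes of DNA synthesis -0.31. The 10 genes of licensing and firing stood at 0.01, the 9 mitotic kinases and checkpoint genes at 0.12 and the 8 genes of chromosomes and spindle at -0.21. No gene of any role group passed limma.

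The question of what distinguishes a lymph node tumor line from the primary line was addressed within each mouse, and since each line is 1 library these differences have no replicate check and no p. In the AOC3 mouse, 33 of the 51 genes were lower and 18 higher in AOC3-LN than in AOC3, against 46.1% of all genes lower. The median log2 difference was -0.09, against 0.02 over all genes. With scaling by the median in place of quantile normalization, 23 genes were lower and the median was 0.01, so the direction of the whole list depended on the scaling. No list gene passed 2-fold, against 5.53% of all genes. Past 1.5-fold were Ccnd2 at 0.88 and Ccne1 at 0.83, against 6.0% of all genes on the higher side, and Cdkn2b at -0.94, against 7.75% on the lower side, or 13.8% in either direction.

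In AOC3-LN the lower levels were mostly those of mitotic genes. Of the 25 genes of mitosis, 21 were lower, with a median of -0.17, whereas of the 26 genes of G1/S and replication 12 were lower, with a median of 0.01. Scaled by the median, 15 of 25 mitotic genes were lower, with a median of -0.04, against 43.6% of all genes. All 6 mitotic cyclins, Cdk1 and Cdc25 genes were lower under quantile normalization, the largest being Ccnb2 at -0.58 and Cdc25b at -0.40. Of 9 mitotic kinases and checkpoint genes 8 were lower, with Bub1b at -0.49, and of 8 chromosome and spindle genes 7 were lower, with Tpx2 at -0.40 and Cenpf at -0.35. The exceptions of the mitotic set were Birc5 at 0.17, Kif20a at 0.02 and the transcription factors Foxm1 at 0.08 and Mybl2 at 0.35. None of these values reached 1.5-fold.

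In the AOC11 mouse the early genes were the lower ones. Of the 51 genes, 34 were lower and 17 higher in AOC11-LN than in AOC11, against 51.3% of all genes lower, with a median of -0.17 against -0.02 over all genes. Past 2-fold were 3 genes, against 8.11% of all genes and against 438 of the 10038 genes that were at least as high as the lowest list member in all lines. Cdkn2b was higher, at 1.70, against 4.97% of all genes on that side, and Ccnd2 and Rrm2 were lower, at -1.19 and -1.08, against 3.14%. Past 1.5-fold were 9 genes, against 24.6% of all genes. They added Cdkn1b at 0.76 to the higher side, which held 12.9% of all genes, and to the lower side, with 11.7%, Rb1 at -0.97, Ccnd3 at -0.65, Cdc6 at -0.64, Mcm4 at -0.62 and Kif20a at -0.61.

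Of the 26 genes of G1/S and replication, 21 were lower in AOC11-LN, with a median of -0.29, and of the 25 genes of mitosis 13 were lower, with a median of -0.12. Scaling by the median left 20 of 26 early genes lower. All 10 genes of licensing and firing were lower under quantile normalization, from Mcm7 at -0.04 to Cdc6 at -0.64, and all 4 genes of DNA synthesis, from Rrm1 at -0.28 to Rrm2 at -1.08. Ccnd1 at 0.53 and Cdkn1b stood on the higher side together with Cdkn2b. Of the mitotic genes, Ccnb2 at 0.53, Cenpf at 0.40 and Cdc25b at 0.38 were higher, and Mki67 at -0.45 and Ccna2 at -0.44 were lower.

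**Figure D5:**
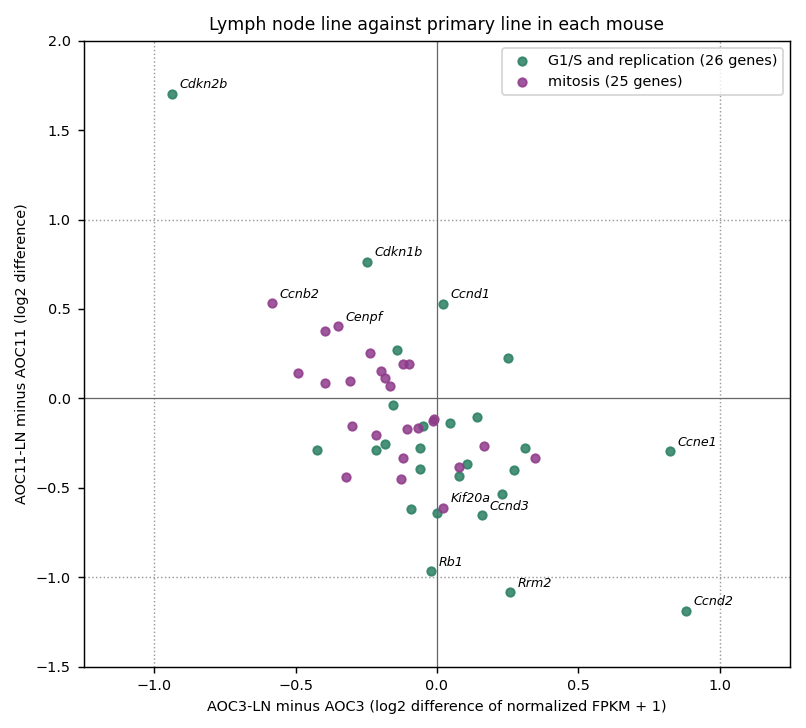
Log2 difference of the lymph node line from the primary line in the AOC3 mouse (horizontal) and in the AOC11 mouse (vertical), 1 point per gene, colored by phase, with dotted lines at 2-fold. Mitotic genes lie mostly left of 0 and early genes mostly below 0, and Cdkn2b (-0.94 and 1.70) and Ccnd2 (0.88 and -1.19) lie in opposite corners.

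Set side by side, the shifts were opposite in sign in the mice for 31 genes, lower in both for 18 and higher in both for 2. Of all genes, 22.3% were lower in both, 23.9% higher in both and 46.2% of the same sign in either way. With the mouse as a term, limma of the lymph node lines against the primary lines found no list gene at an adjusted p of 0.05, against 0.0141% of all genes, or 2 genes, and none at an unadjusted p under 0.05, against 2.86%. Over the list the median shift averaged over the mice was -0.11. Cdkn2b and Ccnd2, the genes with the largest shift in each direction in AOC11-LN, both had the opposite sign in AOC3-LN. Past 1.5-fold in opposite directions in the mice were 3.47% of all genes.

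The shifts were also set out by the words in the promoters. The 19 genes whose windows, like that of Ccnb2, hold a CHR and a CCAAT word had a median log2 difference of -0.18 in AOC3-LN, with 18 lower, and of 0.11 in AOC11-LN, with 7 lower. Over all 659 tested genes with both words, 53.0% were lower in AOC3-LN and 53.7% in AOC11-LN. Scaling by the median left 14 of the 19 lower in AOC3-LN, with a median of -0.05. An E2F word, as in Mcm6, stood in 9 list genes with values, the mitotic gene Cdk1 among them and Cdt1 not. They had medians of -0.06 in AOC3-LN, with 5 lower, and of -0.28 in AOC11-LN, with 8 lower. Of all 637 tested genes with such a word, 50.1% and 50.5% were lower. Scaled by the median, the 9 list genes had a median of 0.06 in AOC3-LN. Their exception in AOC11-LN was E2f2 at 0.23. Of these genes, 6 lacked the pair of CHR and CCAAT words, and all 6 were lower in AOC11-LN. Over the 20 list genes without that pair, with or without an E2F word, 17 were lower in AOC11-LN, with a median of -0.29. The list genes share function as well as letters, so the words and the roles cannot be told apart here.

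Genes of the cycle that are not on the list were taken from hand-written lists of the same roles. Of 96 further genes of inhibitors, E2F and MuvB factors, replication, nucleotide supply and mitosis, none passed limma between the mice over all genes, against 0.205% of all genes, and 4 passed 2-fold, against 11.1%. With protein-coding genes only, Cdkn2d and Cdkn3 passed, both with an adjusted p of 0.0471 by limma, against 256 of all 11380 genes in that setting. The inhibitor gene Cdkn2d was at 8.29 and 5.92 FPKM in AOC3 and AOC3-LN and at 23.6 and 19.1 FPKM in AOC11 and AOC11-LN, a log2 difference of -1.40 with an adjusted p of 0.0991 by limma. The phosphatase gene Cdkn3 (-1.23) and the kinetochore gene Nuf2 (-1.04) were also lower in the AOC3 lines. Cdkn1a, which encodes p21, was at 14.6, 23.8, 6.97 and 7.64 FPKM, a log2 difference of 1.30 with an adjusted p of 0.142 by limma. The AOC3 lines thus stood higher in Cdkn1a and lower in Cdkn1b and Cdkn2d than the AOC11 lines, and of these Cdkn2d passed limma with protein-coding genes only.

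In the lymph node lines, 29 of 36 further mitotic genes were lower in AOC3-LN, with a median of -0.21, against 46.1% of all genes, and 26 under scaling by the median, against 43.6%. In AOC11-LN, 20 of 30 further licensing and fork genes and 9 of 10 genes of nucleotide supply and S phase chromatin were lower, against 51.3% of all genes. Past 2-fold in AOC11-LN were Cdkn2a at 1.28, Lin37, a subunit of the DREAM complex, at 1.02 and the mitotic kinase gene Pbk at -1.14. Pcna, the sliding clamp of the fork, was at 222.6 and 241.8 FPKM in AOC3 and AOC3-LN and at 239.7 and 204.3 FPKM in AOC11 and AOC11-LN. Of 8 genes tied to exit from the cycle, Klf4 was higher in the AOC3 lines at 1.13 and in AOC3-LN at 1.12, and Klf6 was lower in AOC11-LN at -1.33.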

How the data were processed

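RNA of 4 cultured mouse oral cancer lines was sequenced as paired-end reads from stranded mRNA libraries, with 1 library per line. Reads were trimmed with Trim Galore and mapped to mm10 with TopHat2, and the authors deposited FPKM values from Cufflinks on GENCODE M21 with default parameters. A strand setting is not given in the sources used here, so reads of genes that overlap on opposite strands cannot be told apart. The deposited values were not quantile-normalized.

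Here log2(FPKM + 1) was quantile-normalized over 34721 entries, and the 14165 genes that reached 1 FPKM in some line entered the tests. Differences are on this scale, which understates those of low genes. The AOC3 and AOC11 lines were compared by means and by limma 3.58.1 in R 4.3.3 (lmFit, eBayes with trend, Benjamini-Hochberg), and the lymph node with the primary line within each mouse by fold, and over the mice by limma with mouse as a term. Lines of 1 mouse stand in for replicates, so p-values measure the spread between these lines. The fits were checked on simulated lines with genes changed 4-fold at an SD of 0.15, and limma recovered 200 of 200 with 8 false calls among 14165 genes between the mice and 7 between the sites. This gives no power for smaller differences or a larger spread. Library size was estimated from steps in low FPKM values among 9528 genes with 1 transcript, with 2455 to 2932 values used per line. Of the values used, 62.0% to 69.8% lay within 0.1 of a whole number of fragments. Evenly spread values would give 20%. The size was chosen to bring values near whole numbers, so this share is a description and not a test.

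The members, role groups and other lists were chosen with earlier results of these data known. Values in every line were planned for genes past 2-fold, for the largest differences of each role in each comparison, for Mcm2 to Mcm7, and for Cdkn1a and Cdkn2a. Ccnd1, Cdk6, Cdk1, Ccnb1, Aurka, E2f2, Ube2c, Top2a, Cenpa and Pcna, and the promoter words, were added after the values were seen. Alternatives were another pseudocount (0.1), other filters (none, 5 FPKM), other scalings, protein-coding genes only, 1.5-fold, leaving out each line, and the block. Promoter windows are RefSeq sequences.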

Additional observations from a re-analysis of the deposited data

Results flagged for a closer look

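Ccnd2, the gene of cyclin D2, and Cdkn2b, the gene of the Cdk4 inhibitor p15, were singled out because the lymph node line differed from the primary line in opposite directions in the mice by more than 1.5-fold each time. Of all genes tested, 3.47%, or 491 genes, did the same, so the rule does not set the list apart. Ccnd2 had a log2 difference of 0.88 in AOC3-LN and of -1.19 in AOC11-LN. Cdkn2b had -0.94 in AOC3-LN and 1.70 in AOC11-LN. With 1 library per line, the difference between the mice was not tested. Their levels moved against each other in each mouse, as the plot of the lymph node shifts shows. Groups of 2 lines are too small for a search for a single outlying library.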

How the results depend on the processing

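The counts of list genes past 2-fold were 1 for the AOC3 against the AOC11 lines, 0 for AOC3-LN and 3 for AOC11-LN. At 1.5-fold they were 6, 3 and 9. Scaling by the median gave 2 genes for the AOC3 against the AOC11 lines, adding Kif20a at 1.01. Leaving out 1 line gave 2 to 4 genes in that comparison, with 2 without AOC3, AOC3-LN or AOC11-LN and 4 without AOC11, where Kif20a was at 1.27, Cdkn1b at -1.19 and Cdkn2b at -1.39. The medians of the list moved by at most 0.10 on the log2 scale. The median level of the list had a pooled SD of 0.119 between lines of a mouse. This SD contains the lymph node shifts, so it is no yardstick for them. The median difference of the AOC3 against the AOC11 lines ran from -0.09 to 0.08 when 1 line was left out. That of AOC3-LN moved by 0.0971 under scaling by the median, more than its size, and changed sign from -0.0918 to 0.01. No list gene passed limma under any setting that kept all 4 lines, the replicate block by site (0 genes) and the fit with no replicate block of mouse (0 genes) included. With no filter on low values limma called 0 genes of all, so that setting says nothing of the list. Fits without 1 line leave a single library in a group and give no check either. The primary and lymph node lines are paired by mouse, and site as a block moved the lowest adjusted p of the list from 0.102 to 0.139. For Cenpe the adjusted p by limma on all 4 lines ranged from 0.053, with protein-coding genes only, to 0.276, with no filter on low values. Without 1 line its log2 difference ran from -1.42 to -1.12. The fit called 29 genes of all and 256 when restricted to protein-coding genes. Of the values of single genes under the alternatives, 696 stayed on their side of the 2-fold threshold and 8 newly passed it. Below it, 20 values of 13 genes changed sign, in the AOC3 against the AOC11 lines Ccnd2 from 0.20 to -0.24 without AOC3-LN and -0.40 without AOC11-LN, Cdkn2b from -0.53 to 0.32 without AOC11-LN, and Rb1 from -0.08 to 0.41 and Rrm2 from -0.49 to 0.05 without AOC11. By the longest transcript of each gene, the list genes rest on about 354 fragments or more, and on fewer where shorter transcripts are in use. With 1 library per line, the shifts of the lymph node lines are without an error.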
